A study of Mus musculus with 4 samples.

Results

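The genotype difference between bone marrow cells with and without Nfkb1 was not the same at both days of culture, and the values described here are its shift per gene. The shift is the difference between knockout and wild type at day 5 minus the same difference at day 3, on the scale log2(RPKM + 1), where RPKM is a read count divided by the length of the transcript and the depth of the library. A negative shift means that the knockout lost ground to wild type between the days, and a positive one that it gained. Genes whose RPKM averaged 5 or more across the libraries were taken, 8059 of 26026 in the deposited table. Messenger RNA had been sequenced from bone marrow-derived dendritic cell cultures (BMDC) grown in 100 ng/mL Flt3 ligand, with the medium replenished on day 3. The 4 groups were Wild-type (C57/B16) at day 3, Wild-type (C57/B16) at day 5, Nfkb1-/- at day 3 and Nfkb1-/- at day 5, with 1 library each. The labels do not state how many animals gave each library, the ages or the nature of the allele. Since there was 1 library per group, no value below has a replicate check or a test.

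Flt3 ligand is the cytokine that carries marrow progenitors into the dendritic lineages, which are conventional cells of types 1 and 2 and plasmacytoid cells. Whole marrow also brings neutrophils, basophils, megakaryocytes, erythroid and B cells into the culture. Nfkb1 encodes p105, an inhibitor of NF-kB dimers, and its processed form p50, a subunit that binds DNA but has no activation domain of its own. In a bulk library, fewer cells of a type and less RNA per cell cannot be told apart, so every level below is a level of the culture.

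Sequencing depth, worked back from the steps of the values, was between 15255070 and 16215214 reads per library. At day 3 Nfkb1 itself (NM_008689) was at 74.8 RPKM with wild type and 56.0 with knockout, and at day 5 at 114 and 64.7 RPKM. It was lower in both libraries labelled knockout but not absent, and a value summed over the gene does not show whether the disrupted part was read, so it does not check those labels. Its own shift was -0.40. Sod2, the mitochondrial superoxide dismutase named in the series title, had a shift of 0.11, and the subunit genes Nfkb2, Rela, Relb and Rel had shifts of 0.21, -0.17, -0.10 and -0.02, those of Relb and Rel being 0.03 and 0.11 after the libraries were rescaled by their median ratio. The NF-kB subunit genes and Sod2 were thus not among those past the size rule. Flt3, the receptor for the ligand, stood at 29.9 RPKM in wild type and 32.2 in the knockout at day 3. At day 5 it stood at 84.8 and 56.6 RPKM, a shift of -0.68.

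A shift counted as a drop or a rise if it reached 1 downwards or upwards, a factor of 2. By this size rule the genotype difference dropped for 170 genes, 2.11% of the 8059, and rose for 39, 0.484%. Rescaling the libraries by their median ratio gave 116 drops and 49 rises, and moved the median of all genes from -0.14 to -0.01. Of the 8059 genes, 84.7% had a shift within 0.5 of 0, and 5526 (68.6%) had a shift below 0. Taken by itself, in either direction, the day 3 difference passed the rule for 110 genes (1.36%) and the day 5 difference for 318 (3.95%). Between the days, 260 genes (3.23%) passed it in wild type and 267 (3.31%) in the knockout. A pseudocount of 5 RPKM gave 77 drops and 25 rises of the shift. Of the named drops, Olfm4, Stfa2l1, Cxcr2, Cebpe, Gata1, Ctla2b, Tlr3, Ear2, Mgl2, Clec10a, Kit, Spib and Blk then missed the rule, and of the named rises Pira6, Tarm1, Aldoart1, Macf1, Rnf213, Cox6a2 and Asns. All these counts share their 4 libraries and are not independent of each other. Few reads stood behind many of the rises: 143 of the 170 drops but 19 of the 39 rises had a mean of at least 50 reads per library.

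**Figure D1:**
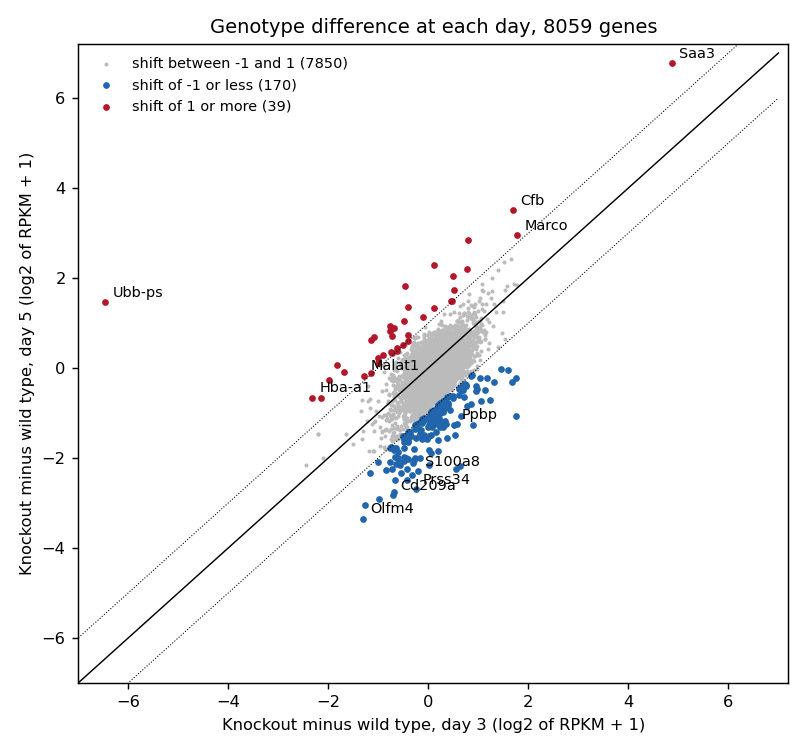
Each point is 1 of the 8059 genes, placed by the difference between knockout and wild type at day 3 (horizontal) and at day 5 (vertical), both in log2 of RPKM + 1. Genes on the solid line have the same difference at both days, the dotted lines mark a shift of 1 either way, and the 170 drops lie below and the 39 rises above them.

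The drops were mostly genes whose genotype difference was small at day 3 and large at day 5. Of the 170, 102 (60%) passed the rule between genotypes at day 5 alone, 10 at day 3 alone, 4 at both days with the same sign and 1 at both days with opposite signs, and 53 passed at neither day. Seen by genotype, 39 passed the rule upwards between the days in wild type alone, 35 passed it downwards in the knockout alone and 40 in both genotypes in the same direction. The remaining 55 passed it in neither genotype and 1 in opposite directions. The knockout at day 5 was the lowest library for 111 of the 170, and wild type at day 5 the highest for 93, as the definition of the shift favours. Genes nearest the rule were Itga6 and Crispld2, just inside at -1.004 and -1.001, and Tmem199 and Vpreb3, just outside at -0.9997 and -0.9991. On the other side Emc9 was just inside at 1.00 and Sumo2 just outside at 0.99.

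Late granule and maturity genes of neutrophils had the lowest median shift of the 41 gene lists, which hold 67 of the 170 drops and 8 of the 39 rises: -1.41 over 30 measured genes against -0.14 over all 8059. Of the 30, 19 dropped, none rose and 28 lay below 0. In all 30 the level was lower at day 5 than at day 3 in both genotypes, the median change being -1.30 for wild type and -2.79 for knockout. The genotype difference went from a median of -0.46 at day 3 to -1.98 at day 5. All 19 drops passed the size rule between the days in both genotypes in the same direction. With a pseudocount of 5 RPKM 14 of the 30 dropped and the median was -0.97.

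S100a8 (NM_013650), a subunit of calprotectin, the abundant cytosolic protein of neutrophils, stood at 8077 RPKM in wild type and 7005 in the knockout at day 3, and at 3687 and 752 RPKM at day 5. The knockout library was close to wild type at day 3 and far below it at day 5, and the shift was -2.09. Counted in reads without a pseudocount, the knockout-to-wild-type ratio at day 5 was 0.235 of that at day 3, with a 95% counting interval of 0.227 to 0.243. Such intervals cover counting error only and take reads as independent molecules, which reads without molecular identifiers are not. Its partner S100a9 went from 13629.8 and 9254 RPKM at day 3 to 5325 and 1187 RPKM at day 5, a shift of -1.61. Ly6g, the surface marker of mature mouse neutrophils, went from 39.7 and 29.4 to 11.8 and 1.27 RPKM, a shift of -2.08. Retnlg, a resistin-like protein of neutrophils, went from 2052 and 1277 to 683 and 100.4 RPKM (-2.07).

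Olfm4, a marker of a subset of neutrophils, already differed at day 3. It stood at 52.1 RPKM in wild type and 20.3 in the knockout at day 3, and at 22.7 and 1.32 RPKM at day 5, a shift of -2.03. Its drop depended on the pseudocount, being -0.96 with 5 RPKM in place of 1. Lcn2, an iron-siderophore binder of secondary granules, went from 1927 and 1366 to 838 and 212 RPKM, a shift of -1.48. Cxcr2, the chemokine receptor that draws neutrophils to tissue, went from 90.0 and 56.1 to 31.5 and 7.26 RPKM, a shift of -1.30.

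Members that did not follow the others were Hp and Il1r2, both chosen here for their values. Hp, haptoglobin, stood at 293 RPKM in wild type and 625 in the knockout at day 3 and at 127 and 421 RPKM at day 5, a shift of 0.62. It is also an acute phase gene, and the knockout was the higher genotype at each day. Il1r2 had a shift of 0.18. The summed level of the 30 genes was 36588 and 26354 RPKM at day 3 and 14943 and 3757 RPKM at day 5. That sum is part of the total that RPKM are scaled to, and its part in the shifts of other genes was not tested.

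Primary granule genes, made earlier in granulocyte development, moved less. Of 17 measured, 3 dropped, none rose and the median shift was -0.36. The 3 were Fcnb (33.1 and 29.4 RPKM at day 3, 16.7 and 3.42 at day 5, shift -1.84), the elastase gene Elane (-1.28) and Cebpe, a transcription factor of late granulocyte development (-1.17). Prtn3, proteinase-3, another of the same granules and chosen here for its values, had a shift of 0.05, with 121 and 232 RPKM at day 3 and 105 and 209 at day 5. The shifts of the list ran from -1.84 to 0.46.

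Basophil, mast cell and eosinophil genes differed in course from the neutrophil genes. Over 19 measured genes of a list of 36 the median shift was -1.05, with 10 drops and no rise. Their median genotype difference was 0.02 at day 3 and -1.26 at day 5. Between the days the median change was -0.13 for wild type and -1.62 for knockout, and 7 of the 10 drops passed the rule downwards in the knockout alone. After rescaling by the median ratio 8 of the 19 dropped, and with a pseudocount of 5 RPKM 6. With a minimum mean of 1 RPKM 11 of 28 dropped and the median was -0.87, and with no minimum 11 of 35 and -0.68.

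Prss34 (NM_178372), a serine protease of basophil granules, had the lowest shift of the named genes with a mean of at least 50 reads. It stood at 72.5 RPKM in wild type and 60.7 in the knockout at day 3, and at 124 and 18.3 RPKM at day 5. Wild type was thus higher and the knockout lower at the later day, with a shift of -2.44 and a ratio of ratios of 0.176 (counting interval 0.153 to 0.203). Mcpt8, the basophil protease, had the same form, from 44.9 and 35.5 to 61.3 and 10.9 RPKM (-2.06). Cpa3, the carboxypeptidase of mast cells and basophils, went from 20.5 and 20.8 to 31.3 and 6.21 RPKM (-2.18). Fcer1a, the alpha chain of the high-affinity IgE receptor, went from 6.07 and 7.09 to 7.38 and 1.33 RPKM (-2.04). Its level in the knockout at day 5 rests on few reads, and the counting interval of its ratio of ratios, 0.154, ran from 0.0859 to 0.270.

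The eosinophil genes Prg2 and Ear7 were lower at day 5 in both genotypes, and further so in the knockout. Prg2, the major basic protein, stood at 404 and 410.3 RPKM at day 3 and at 341 and 94.9 RPKM at day 5, a shift of -1.85. Ear7, an eosinophil-associated ribonuclease, had a shift of -1.92, and it belongs to a family of near-identical copies between which the counting could split reads. Kit, the receptor for stem cell factor on mast cells and progenitors, had a shift of -1.05, which was -0.92 after rescaling by the median ratio. Ifitm1, chosen here for its values, ran against the list at 0.80, from 33.4 and 71.3 RPKM at day 3 to 39.9 and 148 RPKM at day 5. It is also an interferon-inducible gene, and the knockout was the higher genotype at each day.

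Megakaryocyte and platelet genes had another course: wild type climbed while the knockout stood still. Of 30 measured genes 19 dropped, none rose, 29 lay below 0 and the median shift was -1.07. Over the same interval the median change was 1.06 for wild type and -0.00 for knockout. The median genotype difference was 0.11 at day 3 and -1.03 at day 5. Of the 19 drops, 13 passed the size rule upwards in wild type alone. After rescaling by the median ratio 14 of the 30 dropped, and with a pseudocount of 5 RPKM 10. With a minimum mean of 10 RPKM 10 of 19 dropped, and with one of 1 RPKM 21 of 33. Wild type at day 5 was the highest library for 26 of the 30. The minimum mean can thus admit low genes through the library that makes their shift negative.

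Tubb1, the beta tubulin of platelets, stood at 4.61 RPKM in wild type and 9.48 in the knockout at day 3, and at 35.6 and 14.3 RPKM at day 5. The order of the genotypes turned between the days, and the shift was -2.16. Ppbp (NM_023785), the platelet basic protein, a chemokine precursor, went from 97.4 and 139 to 355 and 147 RPKM, a shift of -1.78. Alox12, the platelet lipoxygenase, went from 2.89 and 4.76 to 21.7 and 8.50 RPKM (-1.82). Gp5, glycoprotein V of the receptor for von Willebrand factor, went from 7.66 and 9.56 to 30.0 and 11.4 RPKM (-1.61). In these 3 genes too the knockout was the higher genotype at day 3 and the lower at day 5.

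Vwf itself was the drop in the stromal and endothelial list, which had a median shift of -0.54 over 6 measured genes. It stood at 12.6 and 12.5 RPKM at day 3 and at 30.8 and 11.9 RPKM at day 5, a shift of -1.30. Gng11, a G protein gamma subunit that is in no list, had the same course, from 3.84 and 5.98 to 19.6 and 6.37 RPKM (-2.01). Gata1, the transcription factor of megakaryocytes, erythroid cells and basophils, went from 4.79 and 5.67 to 10.7 and 4.44 RPKM (-1.31). Fli1, an activator of megakaryocyte genes that other blood cells also express, had the highest shift of the list at 0.03. It was named here for that value. The progenitor genes Ctla2a and Ctla2b, near-identical copies, had shifts of -1.58 and -1.37 and were higher at day 5 in both genotypes.

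**Figure D2:**
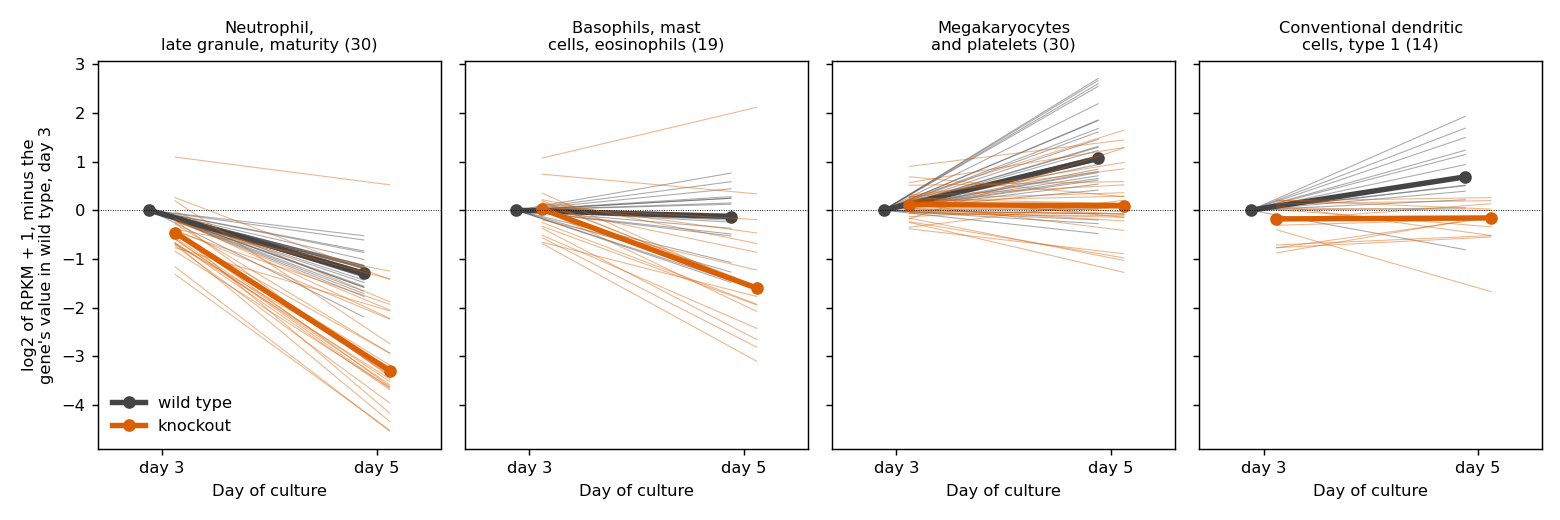
Each thin line is 1 gene, drawn from day 3 to day 5 in wild type (grey) and knockout (orange) as log2 of RPKM + 1 minus its value in wild type at day 3, and the thick lines are medians over the genes of the list. Neutrophil genes ended lower in both genotypes and furthest in the knockout, basophil genes ended lower in the knockout, and megakaryocyte and type 1 dendritic genes ended higher in wild type.

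Promoters of some of these genes are shown because GATA factors act in basophils and megakaryocytes and C/EBP factors in granulocytes. The sequences are RefSeq bases before the start site on build GRCm38.p6, while the deposited values were made on mm9. They were picked after the values and matches were seen. Capitals mark AGATAA or its reverse complement in the first 3 and TTNNGCAA or its reverse complement in the last 2. Only these letters are marked for each gene, and the Saa3 bases also hold the reverse complement of AGATAA, left in lower case.
Prss34 (chr17:25298144-25298393, plus strand): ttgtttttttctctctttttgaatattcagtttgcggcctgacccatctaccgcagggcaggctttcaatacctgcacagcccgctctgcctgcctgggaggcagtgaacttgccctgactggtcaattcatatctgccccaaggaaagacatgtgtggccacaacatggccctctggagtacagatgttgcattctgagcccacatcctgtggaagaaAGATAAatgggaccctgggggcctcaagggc
Cpa3 (chr3:20242182-20242431, minus strand): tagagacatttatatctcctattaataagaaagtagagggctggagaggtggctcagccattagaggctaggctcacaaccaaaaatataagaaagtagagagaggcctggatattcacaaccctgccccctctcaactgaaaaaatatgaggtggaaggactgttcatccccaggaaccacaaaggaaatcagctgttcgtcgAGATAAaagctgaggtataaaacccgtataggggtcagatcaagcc
Gp5 (chr16:30310782-30311031, minus strand): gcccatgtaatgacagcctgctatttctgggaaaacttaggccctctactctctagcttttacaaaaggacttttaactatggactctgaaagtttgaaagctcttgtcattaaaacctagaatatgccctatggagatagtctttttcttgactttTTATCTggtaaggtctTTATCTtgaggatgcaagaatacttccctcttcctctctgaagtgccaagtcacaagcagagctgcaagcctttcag
Retnlg (chr16:48872358-48872607, plus strand): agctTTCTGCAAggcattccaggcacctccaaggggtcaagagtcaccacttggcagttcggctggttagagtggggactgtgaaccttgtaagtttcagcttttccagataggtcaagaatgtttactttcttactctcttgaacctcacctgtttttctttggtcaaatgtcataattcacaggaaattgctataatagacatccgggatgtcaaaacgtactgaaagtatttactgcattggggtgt
Saa3 (chr7:46715677-46715926, minus strand): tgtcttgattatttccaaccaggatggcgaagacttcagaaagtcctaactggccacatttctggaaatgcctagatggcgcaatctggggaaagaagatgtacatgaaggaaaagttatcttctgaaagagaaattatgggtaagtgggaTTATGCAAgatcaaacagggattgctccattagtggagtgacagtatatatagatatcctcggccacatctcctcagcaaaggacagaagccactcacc
The marked letters begin 31 bases before the start in Prss34, 46 in Cpa3, 93 and 77 in Gp5, 246 in Retnlg and 99 in Saa3.

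The letters were counted on both strands in windows from 250 bases before to 50 after each start. RefSeq promoters were at hand for 6402 of the 8059 genes, 113 of the 170 drops and 13 of the 39 rises, and some genes have more than 1. AGATAA was in 17 of 131 promoters of dropping genes (13%) and in 2 of 13 of rising genes (15.4%). Genes within the size rule held it in 5.88% of their promoters, and all 32851 promoters in 11.2%. It was in 6 of 24 promoters of the megakaryocyte genes and 4 of 21 of the basophil, mast cell and eosinophil genes, and also in 3 of 14 of the type 1 dendritic genes. TTNNGCAA was in 13% of promoters of dropping genes and in 2 of 13 of rising genes (15.4%). It was in 8.53% of those of genes within the rule, 10.8% of all promoters and 9 of 27 of the neutrophil genes. The PU.1 letters GAGGAA, of a factor of myeloid and B cells, were in 50 of 131 promoters of dropping genes (38.2%) and in 4 of 13 of rising genes (30.8%). They were in 28.0% of those of genes within the rule and in 28.3% of all. The same letters were in 18 of 27 promoters of the neutrophil genes and 13 of 24 of the megakaryocyte genes. In the basophil list they were in 6 of 21, and in the type 1 dendritic genes in 1 of 14. The kB letters GGANNTTCC were in 4.58% of the promoters of dropping genes, 0 of 13 of rising genes, 4.88% of those within the rule and 4.26% of all. E-box, CCAAT, hypoxia and antioxidant letters were counted too. The hypoxia letters ACGTG were in 15.3% of promoters of dropping genes, 26.8% of those within the rule and 19.6% of all. The antioxidant letters TGACNNNGC were in 16.8%, 14.6% and 12.4% of these, and in 4 of 13 of rising genes (30.8%). They were in 8 of 14 type 1 dendritic, 3 of 27 neutrophil, 2 of 21 basophil and 2 of 24 megakaryocyte promoters. A match of these letters is a description of the window and not a binding site, and the share in all promoters was close to or above some of these shares.

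The dendritic cell lists differed in their shift. All 14 measured genes of conventional dendritic cells of type 1, the cross-presenting lineage, lay below 0 and below the median of all genes. Their median shift was -0.73, with 3 drops and no rise. The median change between the days was 0.68 in wild type and 0.07 in the knockout. After rescaling by the median ratio, or with a pseudocount of 5 RPKM, 2 of the 14 dropped. With a minimum mean of 10 RPKM 1 of 12 dropped, and with one of 1 RPKM 8 of 21. Naaa, an amidase that is high in these cells, stood at 28.0 and 29.0 RPKM at day 3 and at 80.7 and 28.0 RPKM at day 5, a shift of -1.54. Xcr1, the chemokine receptor that defines them, went from 3.00 and 1.34 to 14.2 and 2.60 RPKM (-1.31). Tlr3, their receptor for double-stranded RNA, went from 4.33 and 2.12 to 11.5 and 2.64 RPKM, a shift of -1.01 that was -0.89 after rescaling by the median ratio. Xcr1 and Tlr3 averaged 5.29 and 5.15 RPKM and exceeded 5 RPKM in wild type at day 5 alone. The minimum mean thus admitted them through the library that makes their shift negative.

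For Naaa the genotypes were level at day 3, whereas Xcr1 and Tlr3 were already lower in the knockout. Clec9a, their receptor for dead cells, differed by -0.88 at day 3 and -1.80 at day 5. Irf8, the transcription factor they depend on, stood at 109 and 94.1 RPKM at day 3 and at 241 and 119 RPKM at day 5, a shift of -0.80. Both were added after their values were seen. The other cell types whose markers moved, the neutrophil, basophil and megakaryocyte lists above, changed over the same libraries, and their part in the dendritic values was not tested.

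Type 2 dendritic cell genes had a median shift of -0.27 over 19 measured genes, with 4 drops and no rise, and 11 of the 19 lay below the median of all genes. With a pseudocount of 5 RPKM 1 of them dropped, and after rescaling by the median ratio 2. Cd209a, a C-type lectin of this lineage, stood at 11.7 RPKM in wild type and 6.86 in the knockout at day 3, and at 27.2 and 2.98 RPKM at day 5. Wild type was higher and the knockout lower at day 5. The shift of Cd209a, -2.13, was the fourth lowest of the named genes with a mean of at least 50 reads. Clec10a, a galactose-binding lectin, had a shift of -1.09, Mgl2, its close relative, -1.13, and the ribonuclease Ear2, which eosinophils and monocytes also express, -1.15. Clec10a and Mgl2 are paralogs, and rescaling by the median ratio moved them to -0.95 and -0.997. Sirpa and Itgam, surface proteins shared with macrophages, had shifts of -0.02 and 0.04 and were added after their values were seen. A list of dendritic cell lineage and maturation genes stood where most genes stood, with 17 measured, 1 drop, no rise and a median of -0.13, against -0.14 for all genes.

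Plasmacytoid dendritic cell genes had a median shift of -0.44 over 26 measured genes, with 2 drops and 1 rise. The drops were Atp1b1 (30.5 and 39.8 RPKM at day 3, 39.1 and 21.6 at day 5, shift -1.20) and the transcription factor Spib (58.5 and 67.5, then 58.4 and 32.2 RPKM, shift -1.04). Spib also serves B cells, and its shift was -0.90 after rescaling by the median ratio. The rise was Cox6a2, a cytochrome oxidase subunit, at 16.4 and 10.2 RPKM and then 19.96 and 26.3 RPKM, a shift of 1.02. Siglech and Tcf4, which mark and specify the lineage, had shifts of -0.48 and 0.01 and were added after their values were seen.

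Class II antigen presentation genes were lower in the knockout at both days, and the gap was wider at day 5. All 12 measured genes had a shift below 0, with a median of -0.41 and none past the size rule. H2-Aa, an alpha chain of the class II molecule, stood at 651 and 333 RPKM at day 3 and at 1187 and 357 RPKM at day 5, a shift of -0.77. H2-Ob, which tunes peptide loading, had a shift of -0.79, with 35.8 and 11.8 RPKM at day 5. The 20 class I genes had a median shift of -0.33, none past the rule.

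B cell genes, markers of a lineage outside the dendritic one, had a median shift of -0.48 over 22 measured genes, with 2 drops, Blk (-1.09) and Spib (-1.04). Blk, a tyrosine kinase, stood at 23.1 and 23.7 RPKM at day 3 and at 16.3 and 7.35 RPKM at day 5, and its shift was -0.95 after rescaling by the median ratio. T, NK and innate lymphoid genes had a median of -0.10 over 11 measured of 40 listed, none past the rule. That median was -0.33 with a pseudocount of 0.1 RPKM, 0.14 with a minimum mean of 1 RPKM and 0.17 with no minimum. Markers of stem and early progenitor cells had a median of -0.35 over 18 genes, and their 3 drops were Ctla2a, Ctla2b and Kit. Of 39 monocyte and macrophage genes, with a median of -0.05, 1 dropped and 1 rose, against 2.11% and 0.484% of all 8059 genes. The drop was Chil3, a chitinase-like protein also made by neutrophils, which went from 662 and 682 RPKM at day 3 to 427 and 114 RPKM at day 5, a shift of -1.94. Atp6v0d2, a proton pump subunit of macrophages and osteoclasts, was the drop among 30 lysosome genes, from 12.6 and 5.86 to 36.5 and 3.94 RPKM (-1.94).

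**Figure D3:**
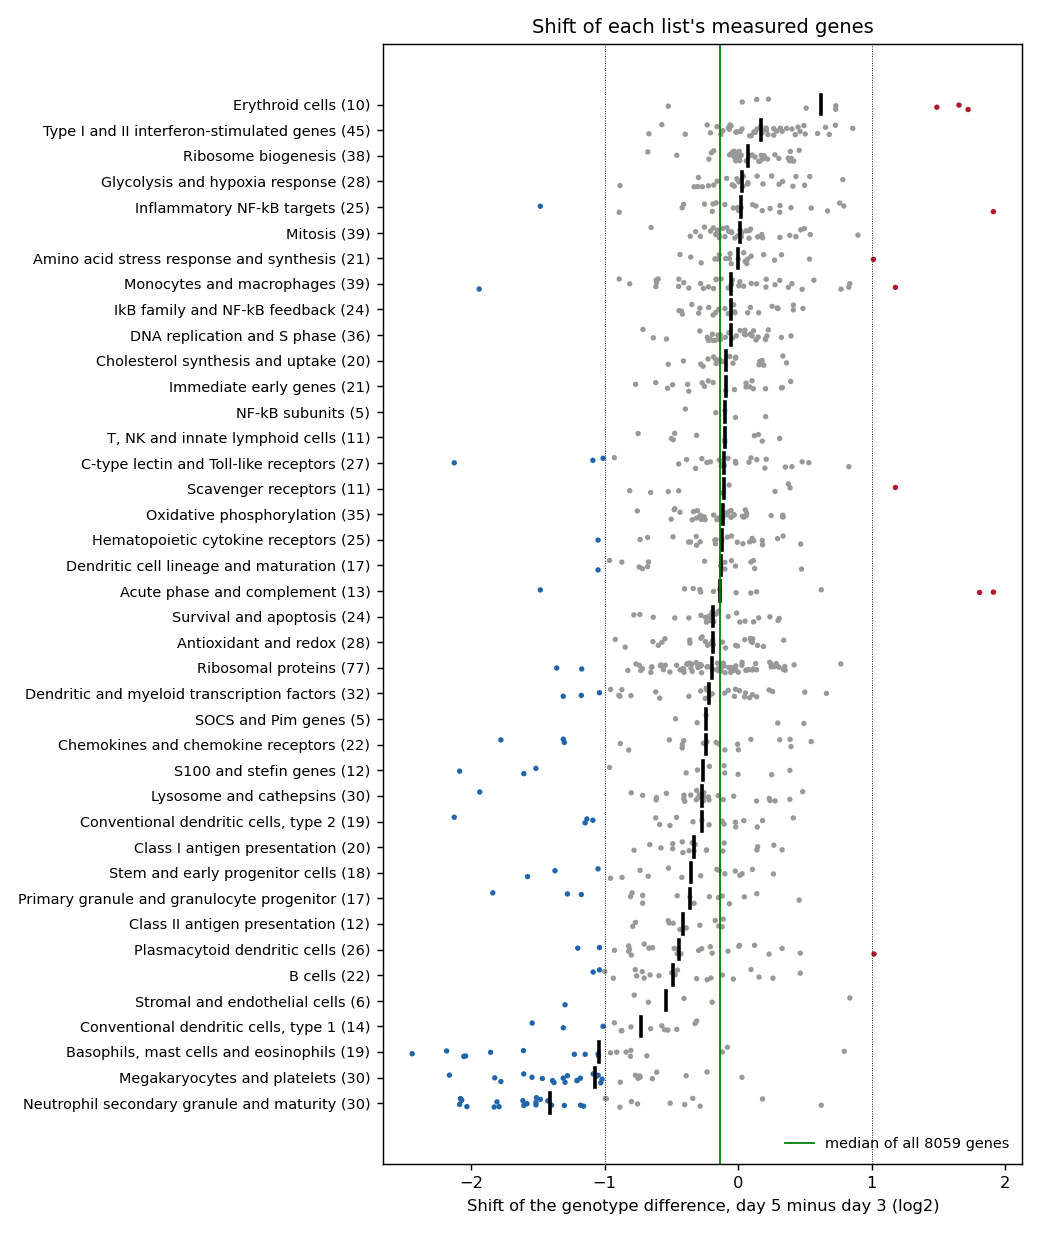
Each point is a gene's shift on the log2 scale, grouped in rows by list with the number of measured genes in brackets; black ticks are list medians and the green line is the median of all 8059 genes. Blue points dropped and red points rose by the size rule, and the 3 lowest medians are those of the neutrophil (-1.41), megakaryocyte (-1.07) and basophil, mast cell and eosinophil (-1.05) lists.

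Rises were fewer, and with at least 50 reads Saa3 and Cfb led them after a pseudogene described further on. Saa3 (NM_011315), an acute phase serum amyloid, stood at 33.5 RPKM in wild type and 1002 in the knockout at day 3, and at 12.7 and 1504 RPKM at day 5. A large difference at day 3 became larger, as wild type was lower and the knockout higher at day 5, and the shift was 1.91. Its ratio of ratios was 3.94, with a counting interval of 3.15 to 4.94. Cfb, complement factor B, stood at 20.6 and 68.9 RPKM at day 3 and at 3.71 and 52.3 RPKM at day 5, a shift of 1.81. Here both genotypes were lower at day 5, wild type by more. Marco, a macrophage scavenger receptor, had the opposite form, level in wild type at 8.27 and 8.57 RPKM and higher in the knockout at day 5, at 73.2 RPKM against 30.8, a shift of 1.18.

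Tarm1, an activating receptor of myeloid cells, stood at 13.5 and 19.6 RPKM at day 3 and at 3.71 and 14.7 RPKM at day 5 (1.23). Pira6, a paired immunoglobulin-like receptor with close paralogs, stood at 5.12 and 9.44 and then at 0.659 and 6.62 RPKM (1.43). With a pseudocount of 5 RPKM these were 0.77 and 0.52. In both, wild type was lower at day 5. Asns, asparagine synthetase, was higher in the knockout at day 5, at 14.9 RPKM against 4.72 in wild type, after 8.37 and 5.79 RPKM at day 3, a shift of 1.01. It was 0.73 with a pseudocount of 5 RPKM.

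As whole lists, the acute phase and inflammatory genes had medians far from the shifts of Saa3 and Cfb. The 13 acute phase and complement genes had a median of -0.14, with 2 rises and 1 drop, the neutrophil granule gene Lcn2. The 25 inflammatory NF-kB targets had a median of 0.02, with Saa3 as the rise and Lcn2 as the drop, and both are shared with the acute phase list. These targets were already higher in the knockout at day 3, with a median difference of 0.50, and stood at 0.47 at day 5. Acod1, Gpr84 and Tnf, named here for their values, had shifts of 0.79, 0.76 and 0.67. Tnf stood at 17.8 and 38.3 RPKM at day 3 and at 9.76 and 34.9 RPKM at day 5, so wild type was lower at day 5 and the knockout nearly level.

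Interferon-stimulated genes leaned the other way from most genes, with 31 of 45 above 0, a median of 0.17 and none past the rule. Oasl2, of the oligoadenylate synthetase family, stood at 112 and 90.7 RPKM at day 3 and at 41.3 and 61.3 RPKM at day 5, a shift of 0.86. Gbp2, a guanylate-binding protein, stood at 24.0 and 34.6 and then at 16.4 and 40.0 RPKM (0.73). The median change between the days was -0.59 in wild type and -0.42 in the knockout.

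Growth and metabolism lists had medians of the shift near 0, where the median of all genes was -0.14. They were 0.07 for 38 ribosome biogenesis genes, 0.03 for 28 glycolysis and hypoxia genes, 0.01 for 39 mitosis genes, -0.06 for 36 DNA replication genes and -0.12 for 35 oxidative phosphorylation genes. None of these genes passed the rule. Set against the median of all genes, ribosome biogenesis genes lay 0.21 higher, glycolysis and hypoxia genes 0.17 and mitosis genes 0.15. DNA replication genes lay 0.08 and oxidative phosphorylation genes 0.02 higher. Of the 38 ribosome biogenesis genes 24 lay above 0 and 5 below the median of all genes, so they too leaned away from most genes. Ribosome biogenesis genes were higher in the knockout by a median of 0.57 at day 3 and 0.70 at day 5, and glycolysis genes by 0.66 and 0.74. For all genes these medians were 0.16 and 0.03. Mki67, the proliferation marker, had the highest shift of the mitosis genes at 0.90, from 65.3 and 56.6 to 60.5 and 98.7 RPKM. Its shift was 1.03 after rescaling by the median ratio and 0.65 after the centring by gene length described further on. For 77 genes of ribosomal proteins the median shift was -0.19. Many of them have processed copies elsewhere in the genome, so their counts are uncertain.

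Of 10 measured erythroid genes 9 had a shift above 0 and 3, the globin genes, rose by the rule as a day 3 difference shrank. Their median of 0.62 was the highest of the 41 lists. It fell to 0.14 over 19 genes with a minimum mean of 1 RPKM and to 0.08 over 31 with no minimum, and each then held 3 drops and 4 rises. Hbb-bt, a beta globin, stood at 27.6 RPKM in wild type and 6.17 in the knockout at day 3, and at 1.58 and 1.13 RPKM at day 5, a shift of 1.72. Hba-a1 had a shift of 1.66 and its near-identical copy Hba-a2 1.49, so these are not separate observations. The levels at day 5 were low in both genotypes, and the other 7 erythroid genes had shifts from -0.52 to 0.73. Ubb-ps, a pseudogene copy of ubiquitin B, had the highest shift, 7.93, on 157 RPKM in wild type at day 3 against 0.790, 0.971 and 4.43 RPKM in the other libraries. Aldoart1, a copy of the aldolase A gene, had a shift of 1.23, and reads of both copies can belong to their parent genes.

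**Figure D4:**
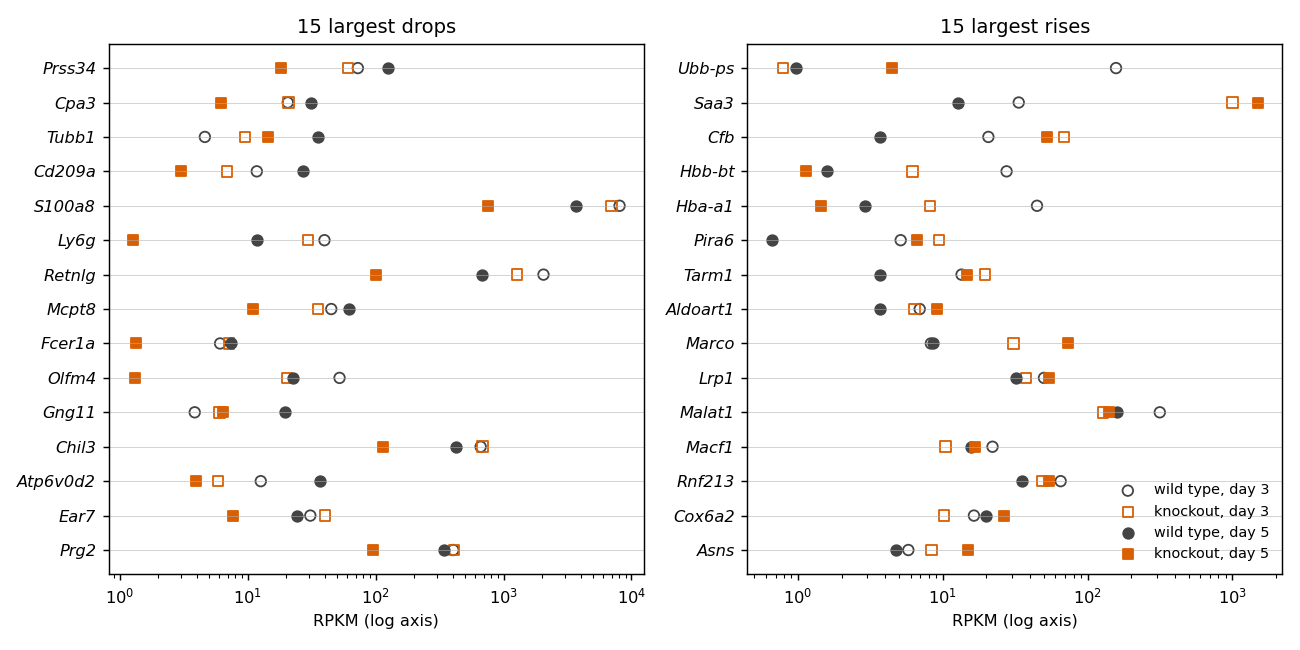
RPKM on a log axis in the 4 libraries for the 15 named genes with the largest drops (left) and the 15 with the largest rises (right), circles for wild type, squares for knockout, open for day 3 and filled for day 5. Among the drops the filled orange square lies left of the filled grey circle in every row, by the choice of the genes, and for Tubb1 and Gng11 wild type at day 3 is the lowest library.

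Long transcripts stood apart from the rest. In 10 bins of gene length the median shift was 0.00 for the 806 genes of 5941 bases or more and between -0.18 and -0.13 in the other bins. The day 3 difference went from a median of 0.24 in the shortest bin to -0.00 in the longest, and the day 5 difference from 0.10 to 0.02. Lrp1, an endocytic receptor, Macf1, a cytoskeletal linker, Rnf213, a ubiquitin ligase, and Malat1, a nuclear noncoding RNA, are long and were among the rises, at 1.14, 1.11, 1.02 and 1.12. They were the 4 rises among the 806 genes of the longest bin, a share near the 0.484% of all genes. The shortest bin, of 54 to 919 bases, held 26 of the 39 rises and 61 of the 170 drops. For a centred shift, the median of each of 20 length bins was taken away and the median of all genes, -0.14, added back, so that the size rule keeps its zero. Lrp1, Macf1 and Rnf213 were then at 0.89, 0.86 and 0.77 and Malat1 at 1.06, the one of the 4 still past the rule. That centring left 165 drops and 37 rises, of which 162 and 36 were the same genes, and whether RNA or library quality moved with length was not tested.

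**Figure D5:**
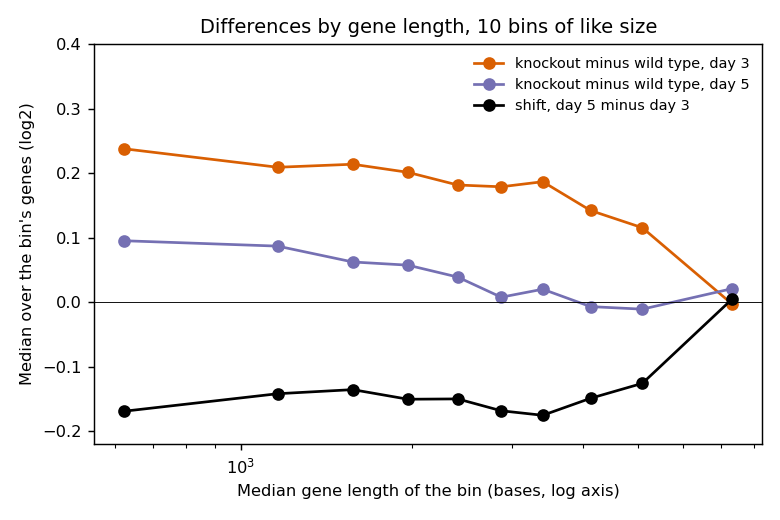
Median over genes of the genotype difference at day 3 (orange), at day 5 (purple) and of the shift (black), in log2 of RPKM + 1, against the median gene length of 10 bins on a log axis. The day 3 curve is highest for short genes, at 0.24, and reaches -0.00 in the longest bin, where the shift is 0.00.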

How the data were processed

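Polyadenylated RNA of 4 libraries, 1 for each combination of genotype and day, was measured. The authors deposited a table of RPKM for 26026 genes, per the file headers, and HISAT2, SAMtools and the mm9 build are named in the submitters' processing notes. For the counting tool, the annotation and any use of strand, a name is not given in the sources used here. Columns were matched to libraries by genotype and day, and 0 value columns were left over. Whole reads, gene lengths and library totals were recovered from the steps of the RPKM values (tolerance 0.003 reads), the length being set to a multiple by a reference transcript for 514 genes. No value was 0. Either genes without reads were set to 1 read or all genes had 1 read added, and the values do not tell these apart, so low read counts may be 1 too high. The recovered reads serve counting intervals and the minimum of 50 reads, and the main values stay RPKM as deposited.

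The shift was computed on log2(RPKM + 1), which understates the change of low genes, without further scaling, with Python 3.11.15, numpy 2.4.6, pandas 2.3.3 and scipy 1.17.1. With 1 library per group there was no residual spread, so no test was run. Intervals (95%) of a ratio of ratios are exact, or log normal above 20000 summed reads. The members, the 41 gene lists and the size rule were chosen with earlier results of these data known, and the lists support nothing by themselves. List members under a mean of 5 RPKM were not measured here.

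Named genes are the NF-kB subunits, Sod2 and Flt3, the 15 largest drops and 15 largest rises with a mean of at least 50 reads (predicted, small RNA, receptor segment and sex-linked genes and further near-identical copies left out), and up to 4 members of each list past the size rule or, where none passed, up to 2. The 2 genes nearest below the minimum mean of 5 RPKM were Fabp7 and Hacd2, with shifts of -0.35 and -0.51, and the 2 nearest above it Gpr137b and Abl2, at -0.91 and 0.01. The calculation of the shift was run on simulated reads with known shifts and counting error alone. That run holds no variation between animals or libraries, so it does not check the drops and rises reported here. Alternatives were pseudocounts of 0.1 and 5 RPKM, other minimum means, rescaling by the median ratio or to the same sum, and, added after seeing the data, centring by gene length and leaving out small RNA genes, numbered Gm genes and pseudogenes.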

Additional observations from a re-analysis of the deposited data

Results flagged for a closer look

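Genes whose genotype difference passed the size rule with opposite signs at the days, and whose change between the days passed it with opposite signs in the genotypes, were taken for a closer look. There were 2 among the 8059, and neither difference was tested. Mir682, a microRNA gene of 96 bases, held 4 reads in wild type and 18 in the knockout at day 3 and 15 and 6 reads at day 5, a shift of -2.83 that rests on these few reads. Whether each count holds 1 added read is not known. Ubb-ps, a ubiquitin pseudogene, held 1685 reads in wild type at day 3 and 9, 11 and 48 reads in the other 3 libraries, a shift of 7.93. The value of Ubb-ps is that of 1 library.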

How the results depend on the processing

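The counts of genes depended on the minimum level and the pseudocount. Against 170 drops and 39 rises, a pseudocount of 5 RPKM gave 77 and 25, no minimum gave 335 and 132, a minimum mean of 1 RPKM gave 310 and 118, and one of 10 RPKM gave 107 drops. Among genes with at least 50 reads there were 19 rises, and without small RNA genes, numbered Gm genes and pseudogenes there were 17. The median shift of all genes was -0.0086 after rescaling by the median ratio, -0.024 after rescaling to the same sum and 0.0039 with no minimum, against -0.14. Set against the median of all genes, 13 of 40 list medians changed side with no minimum and 2 with a minimum of 1 RPKM. Among them were the inflammatory NF-kB targets (-0.0305) and the amino acid stress genes (-0.0281) with no minimum, and the S100 and stefin genes (0.0308) with 1 RPKM. The NF-kB subunit list also changed side with no minimum. It kept its 5 genes and its median of -0.099, while the median of all genes went from -0.14 to 0.0039. For the other lists the cause was not tested. Of the named genes, Relb (0.03 and 0.01) and Rel (0.11 and 0.09) changed sign under both rescalings and Abl2 (-0.24) under the centring by length, all from values near 0. No paired analysis was possible because each group holds 1 library, and no library could be left out for the same reason. Of the 39 rises 20, and of the 170 drops 27, had a mean under 50 reads per library.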
